A study of Vitis vinifera with 204 samples.

Results

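The genes described here are 7 sugar transporter genes of the grape berry, chosen by name and gene ID: HT1 (VIT_00s0181g00010), HT2 (VIT_18s0001g05570), HT3 (VIT_11s0149g00050), HT5 (VIT_05s0020g03140) and HT6 (VIT_18s0122g00850) of the hexose transporter family, SWEET10 (VIT_17s0000g00830) of the SWEET family, and SUC11 (VIT_18s0001g08210), a sucrose transporter. They are 7 of the 29971 gene IDs in the deposited table. The table does not pair IDs with names, so the 7 names are those given with the set and were not checked against an annotation.

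A ripening grape berry takes in sucrose from the phloem, splits much of it into glucose and fructose, and stores both hexoses in the vacuoles of the flesh. Proton-coupled sucrose and hexose transporters carry sugar into cells across the plasma membrane, SWEET proteins let sugar pass along its gradient, and tonoplast transporters load the vacuole. Sugar begins to accumulate at veraison, the point at which berries soften and colour.

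RNA was sequenced from ground pericarp, with the seeds taken out, of Cabernet Sauvignon, clone FPS 8 on 5C rootstock, grown in a vineyard near Modesto, California. After fruit set 50% or 75% of the crop load had been removed by cluster thinning, so every library came from thinned vines, and vines without thinning were not analysed here. Sampling took place at 12 time points in 2012 (days -28 to 80 after veraison), 10 in 2013 (days -20 to 43) and 12 in 2014 (days -14 to 63), with 3 libraries for each season, time point and thinning intensity, here called a cell of the design. Each library was made from a pool of 60 berries from 6 clusters, and each treatment stood in 3 rows of a single vineyard, so p-values measure the spread between pools and not between vineyards. The main fits held no term for row, so pools of different dates were treated as independent. Every sample carries a labelled sugar content in g per 100 ml.

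Values are RPKM, reads scaled to gene length and library size. Library sums of RPKM lay between 817623 and 1105136, and read depth is unknown. All 7 genes passed the filter of at least 1 RPKM in at least 3 libraries, as did 20770 genes in all, and none of their 1428 values was 0. The libraries fell into 2 forms by how low values were listed: all 72 libraries of 2014 and 11 of 2013 held the second form, so 2014 cannot be told apart from the form. Berries are mixed tissue, and more RNA of a gene per cell cannot be told apart from more cells that hold it.

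The levels of the 7 genes differed widely, with medians from 0.134 RPKM for HT5 to 532 RPKM for SWEET10 on day 0, and their order turned over during ripening. In green berries (days before 0, 48 libraries) SWEET10 was the most abundant with a median of 203 RPKM, followed by HT6 at 76.4, SUC11 at 54.7, HT3 at 17.3, HT2 at 10.3, HT1 at 7.91 and HT5 at 0.278 RPKM. Of these neighbours, HT2 exceeded HT1 in 31 of 48 libraries, so no fixed order held, while HT6 exceeded SUC11 in 48 of 48. On day 0 (18 libraries) SWEET10 and HT6 stood level at medians of 532 and 529 RPKM, with SWEET10 higher in 11 of 18 libraries, and HT3 and HT2 stood level at 18.7 and 18.5 RPKM, with HT3 higher in 10 of 18. On days 8 to 22 (48 libraries) SWEET10 reached a median of 679 RPKM and exceeded HT6, at 300.2, in 48 of 48 libraries. At the last 2 time points of a season (36 libraries) SUC11 led with a median of 69 RPKM, above HT6 at 57.7 in 26 of 36 libraries, and SWEET10 had dropped to 34.7 RPKM. HT5, the lowest gene of green berries, then stood at 4.30 RPKM, above HT1 at 2.15 in 32 of 36 libraries, and HT2 was the lowest at 1.00 RPKM.

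**Figure D1:**
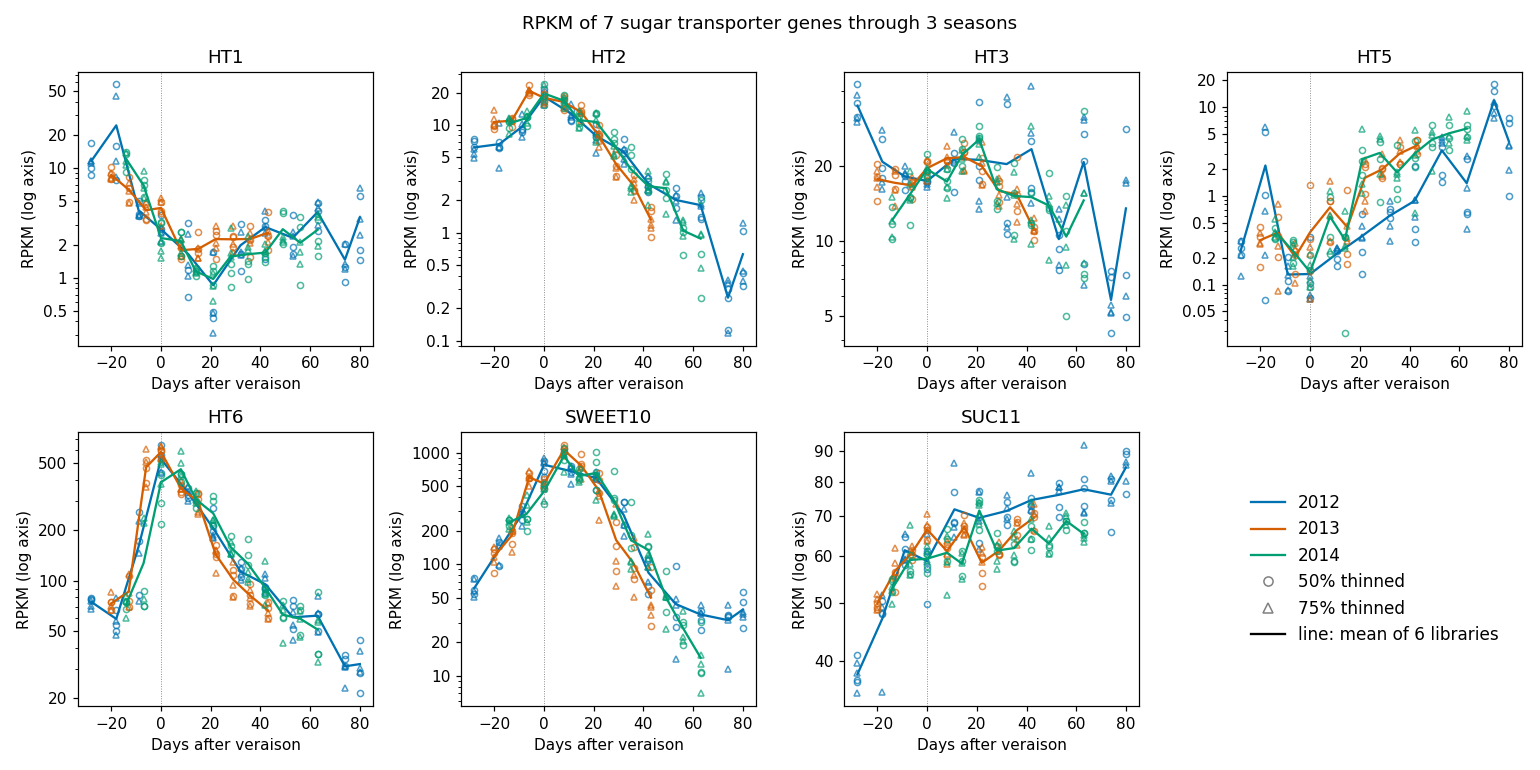
RPKM on a log axis against days after veraison for each of the 7 genes. Circles are libraries of 50% thinned vines, triangles of 75% thinned vines, colours are seasons, and lines join the means of the 6 libraries of a time point. HT2, HT6 and SWEET10 climbed to a peak between days -6 and 8 and then fell. HT1 fell before day 0 and further after it, and HT5 was highest late.

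HT6, the tonoplast hexose transporter also known as TMT1, showed a sharp peak at veraison in every season. At the first time point it stood at 74.8 RPKM ± 4.49 (SD, n = 6 libraries) in 2012, 73.4 ± 7.06 in 2013 and 72.4 ± 7.43 in 2014, levels that lay within the spread of one another. The highest mean was 530 RPKM ± 80.0 on day 0 of 2012, 585 ± 46.9 on day 0 of 2013 and 461 ± 72.8 on day 8 of 2014. By the last time point it had dropped to 32.0 RPKM ± 8.23 on day 80 of 2012, 66.7 ± 6.75 on day 43 of 2013 and 51.3 ± 20.2 on day 63 of 2014.

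The pools sampled just before the peak differed widely in HT6. On day -9 of 2012 the libraries of 50% thinned vines held 82.8, 172 and 258 RPKM at labelled sugar contents of 0.75, 1.78 and 1.72 g/100 ml. The libraries of 75% thinned vines held 146, 227 and 75.6 RPKM at 1.37, 0.94 and 0.87 g/100 ml. The lowest pool of each set was also its pool with the least sugar. On day -7 of 2014 the 50% thinned pools held 71.0, 70.8 and 86.6 RPKM at 0.60, 0.56 and 0.67 g/100 ml, and the 75% thinned pools held 221, 77.8 and 238 RPKM at 0.75, 0.68 and 0.98 g/100 ml. The 2 pools with the most sugar on that day were the 2 in which HT6 had already climbed.

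SWEET10, a plasma membrane hexose transporter, peaked at the same time or later than HT6 and reached the highest level of the 7 genes. It started at 61.6 RPKM ± 10.2 (n = 6) on day -28 of 2012, 119 ± 21.7 on day -20 of 2013 and 238 ± 20.0 on day -14 of 2014. It peaked at 783 RPKM ± 108 on day 0 of 2012, 1064 ± 85.6 on day 8 of 2013 and 937 ± 151 on day 8 of 2014. In 2013 the course had a step: 604 RPKM ± 62.8 on day -6, 531 ± 34 on day 0, then 1064 ± 85.6 on day 8. The 6 libraries of day 8 held between 940 and 1187 RPKM, and the 6 of day 0 between 488 and 585, so these days did not overlap. The share of all tested genes with such a gap was not computed, so the step is a description. The decline ended at 39.4 RPKM ± 10.3 in 2012, 50.4 ± 24.3 in 2013 and 14.5 ± 8.41 in 2014.

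HT2, another member of the hexose transporter family, had its highest mean on the same day as HT6 in 2012 and at the time point before it in 2013 and 2014, at a far lower level. Its highest mean was 18.4 RPKM ± 2.44 (n = 6) on day 0 of 2012, 20.8 ± 1.53 on day -6 of 2013 and 19.6 ± 3.46 on day 0 of 2014. It was down to 0.634 RPKM ± 0.393 on day 80 of 2012, 1.32 ± 0.312 on day 43 of 2013 and 0.884 ± 0.617 on day 63 of 2014. Its lowest point was day 74 of 2012, at 0.250 RPKM ± 0.108. Libraries of day -6 and day 0 of 2013 overlapped for HT2 and for HT6, as did those of day 0 and day 8 of 2014. On those days of 2014 HT2 ran from 15.3 to 23.9 and from 14.3 to 18.9 RPKM. HT6 ran from 217 to 510 and from 389 to 589 RPKM. The order of the 2 genes in these seasons therefore rests on means.

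HT1, a plasma membrane hexose transporter, was a gene of the green berry. It held 11.6 RPKM ± 2.77 (n = 6) on day -28 of 2012, 8.61 ± 0.882 on day -20 of 2013 and 12.0 ± 1.94 on day -14 of 2014, and reached its lowest mean after veraison, at 0.854 RPKM ± 0.667 on day 21 of 2012, 1.78 ± 0.289 on day 8 of 2013 and 0.974 ± 0.246 on day 21 of 2014. On day -18 of 2012 the replicate 2 pools stood apart in both thinning intensities, at 57.6 and 45.3 RPKM. The 4 other pools of that day held 15.7, 7.82, 11.5 and 8.23 RPKM.

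HT5, a plasma membrane hexose transporter that is known for its response to pathogens and to abscisic acid in grapevine leaves, was low until the berries were sweet. On day 0 it held 0.132 RPKM ± 0.107 (n = 6) in 2012, 0.390 ± 0.461 in 2013 and 0.138 ± 0.0481 in 2014. Its highest mean was 11.8 RPKM ± 4.04 on day 74 of 2012, 3.70 ± 0.541 on day 43 of 2013 and 5.73 ± 1.74 on day 63 of 2014. The libraries of day 74 held 10.4, 15.1 and 18.1 RPKM at 50% thinning and 11.5, 8.52 and 7.47 at 75%. It had 1 early excursion: the replicate 2 pools of day -18 of 2012, in which HT1 also stood apart, held 5.27 and 5.96 RPKM, while the 4 others held at most 1.01.

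HT3, a further member of the hexose transporter family, began high in 2012 and rose into early ripening in 2013 and 2014. In 2012 it began at 34.8 RPKM ± 4.93 (n = 6) on day -28, earlier than any day sampled in the other seasons. It then stood at 20.7 ± 4.87 on day -18, 17.4 ± 0.918 on day 0 and 21.1 ± 8.43 on day 21. In 2013 it went from 17.7 RPKM ± 2.04 on day -20 to 21.7 ± 2.20 on day 15. In 2014 it went from 12.1 RPKM ± 1.89 on day -14 to 25.5 ± 2.39 on day 21. The last time points held 13.5 RPKM ± 9.01 in 2012, 11.1 ± 0.733 in 2013 and 14.5 ± 10.0 in 2014, with a wide spread between pools in 2012 and 2014.

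SUC11, a proton-coupled sucrose transporter, was the steadiest of the set. It went from 38.0 RPKM ± 2.04 (n = 6) on day -28 to 84.5 ± 5.34 on day 80 of 2012, from 49.9 ± 1.23 on day -20 to 69.5 ± 2.81 on day 43 of 2013, and from 52.9 ± 1.79 on day -14 to 65.4 ± 1.67 on day 63 of 2014. The highest and lowest pool of a cell differed by a median ratio of 1.10 for SUC11, and in none of the 68 cells by more than 2-fold. The same median ratio was 1.28 for HT6, 1.34 for HT3 and HT2, 1.46 for SWEET10, 1.60 for HT1 and 2.15 for HT5, the gene with the lowest levels.

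The onset of ripening was tested as days 8 to 22 minus the days before veraison, with limma on log2(RPKM + 1) over all libraries and equal weight on seasons and thinning intensities. SWEET10 and HT6 rose and HT1 fell at least 2-fold. Of all tested genes 4.55% rose and 17.9% fell by that rule. SWEET10 went from 238 RPKM ± 163 (n = 48) to 723 ± 221 (n = 48), or 1.78 on the log2 scale (SE 0.09, limma adjusted p = 5.2e-41). HT6 went from 141 RPKM ± 139 to 294 ± 98.2, or 1.41 on the log2 scale (SE 0.06, limma adjusted p = 2.8e-48). HT1 went from 9.75 RPKM ± 9.50 to 1.58 ± 0.696, or -1.90 on the log2 scale (SE 0.08, limma adjusted p = 9.1e-51). All 48 early ripening libraries lay below all 48 green libraries for HT1, the highest at 3.15 and the lowest green one at 3.34 RPKM, while the ranges of SWEET10 and HT6 overlapped. The share of all tested genes without overlap was not computed. The median of all tested genes was -0.24 on the log2 scale, and -0.06 after median ratio scaling, and that scaling moved the changes upward, to 2.02 for SWEET10, 1.65 for HT6 and -1.71 for HT1. In 50% and 75% thinned vines taken separately the onset changes were 1.92 and 1.64 for SWEET10, 1.53 and 1.28 for HT6, and -1.90 in both for HT1, differences between intensities that were not tested for the onset itself.

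The other 4 genes moved by less than 2-fold at onset. SUC11 rose by 0.29 on the log2 scale (SE 0.02, limma adjusted p = 7.6e-32), HT5 by 0.26 (SE 0.09, adjusted p = 0.0067), HT3 by 0.24 (SE 0.09, adjusted p = 0.0086) and HT2 by 0.14 (SE 0.05, adjusted p = 0.0048). With them, 6 of the 7 genes were higher and 1 was lower at an adjusted p under 0.05, where 28.4% of all tested genes were higher and 60.0% lower. For HT2, whose mean was highest on day -6 or 0, the window of days 8 to 22 lies past the peak.

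The rise was followed in the interval of each season that held the most changed genes of these libraries, day -9 to 0 in 2012, -13 to -6 in 2013 and 0 to 8 in 2014. Since the intervals were picked on the same data, the counts are a description. HT6 rose by 1.85 on the log2 scale (SE 0.17, limma adjusted p = 5.8e-19) in 2012 and by 2.44 (SE 0.17, adjusted p = 3.7e-27) in 2013. In 2014, when it had reached 386 RPKM ± 116 (n = 6) by day 0, the difference over the interval was 0.30 (SE 0.17, adjusted p = 0.12). SWEET10 rose in all 3 intervals, by 1.48 (SE 0.25, adjusted p = 1.3e-07), 1.74 (SE 0.25, adjusted p = 1.1e-09) and 1.05 (SE 0.25, adjusted p = 0.00016). The value for 2014 was 0.83 without the replicate 2 libraries, under the 2-fold limit. HT2 rose by 0.88 in 2012 (SE 0.14, adjusted p = 6.1e-09) and 0.86 in 2013 (SE 0.14, adjusted p = 1.3e-08), just under 2-fold. The 2012 value passed that limit with median ratio scaling (1.08), and both did with quantile normalization (1.25 and 1.15). At least 2-fold rises numbered 2, 2 and 1 of the 7 genes, where 3.19%, 3.09% and 1.5% of all tested genes rose.

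Late ripening was tested as the last 2 time points of a season minus days 8 to 22. SWEET10, HT2 and HT6 fell and HT5 rose at least 2-fold, a change that 8.22% and 5.74% of all tested genes showed in those directions. SWEET10 fell from 723 RPKM ± 221 (n = 48) to 44.1 ± 35.2 (n = 36), or -4.26 on the log2 scale (SE 0.10, limma adjusted p = 4.2e-81). HT2 fell from 12.1 RPKM ± 3.58 to 1.15 ± 0.884, or -2.64 on the log2 scale (SE 0.05, limma adjusted p = 4.5e-89). HT6 fell from 294 RPKM ± 98.2 to 53.6 ± 21.0, or -2.45 on the log2 scale (SE 0.07, limma adjusted p = 1.8e-72). For these 3 genes every ripe library lay below every library of days 8 to 22. The share of all tested genes with such a gap was not computed, so this is a description. HT5 rose from 0.859 RPKM ± 1.02 to 5.57 ± 3.63, or 1.83 on the log2 scale (SE 0.10, limma adjusted p = 2.7e-38), with overlapping ranges. The median of HT5 over all libraries was 0.674 RPKM, a range in which the added 1 understates a change: with a pseudocount of 0.1 its late change was 2.95.

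HT3 fell by 0.93 on the log2 scale in late ripening (SE 0.09, limma adjusted p = 1.8e-17), from 21.3 RPKM ± 4.13 to 11.8 ± 6.36, a change that reached 2-fold with median ratio scaling (-1.06). HT1 rose by 0.42 (SE 0.08, adjusted p = 2.4e-06), from 1.58 RPKM ± 0.696 to 2.44 ± 1.21, against 9.75 ± 9.50 in green berries. SUC11 was higher by 0.13 (SE 0.02, adjusted p = 2.5e-09) as deposited, but its difference was -0.01 after median ratio scaling, so no direction is given for it. As deposited, and with SUC11 counted among the higher, 3 genes were higher and 4 lower at an adjusted p under 0.05, where 47.4% of all tested genes were higher and 37.8% lower.

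**Figure D2:**
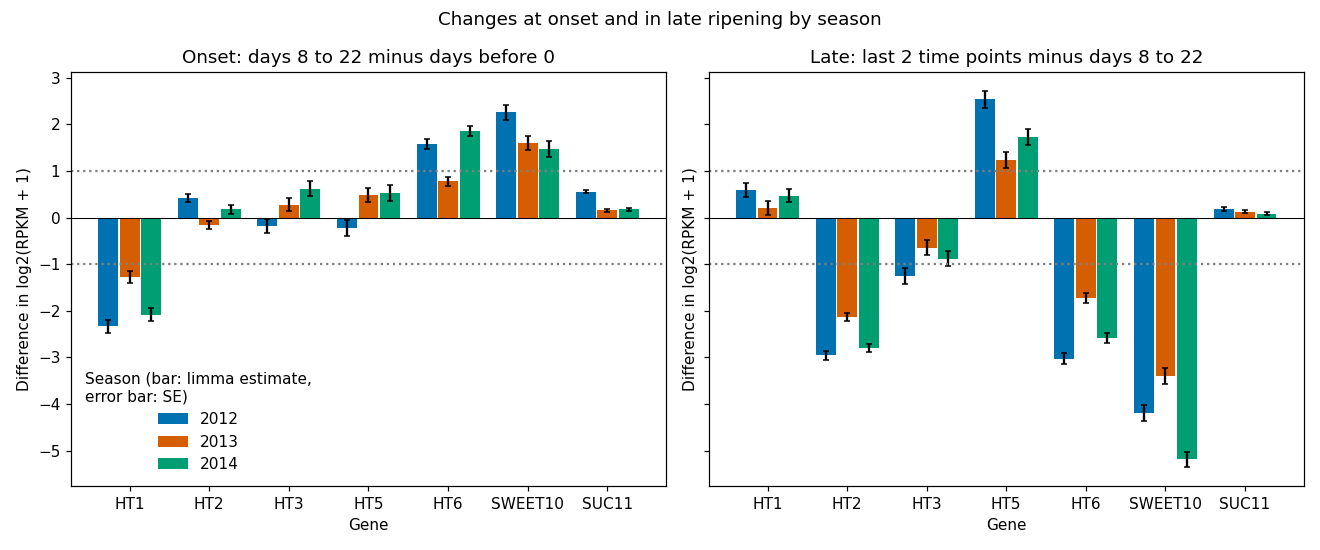
Differences in log2(RPKM + 1) at the onset of ripening (left) and in late ripening (right) for each gene and season; bars are limma estimates, error bars their SE, dotted lines mark 2-fold. HT1 fell at onset in each season, HT2, HT6 and SWEET10 fell late in each season, and HT5 rose late in each season.

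The size of the onset change differed between seasons for all 7 genes by limma's F test, where 75.8% of all tested genes passed, so the count of 7 is near what the table as a whole showed. The seasons were sampled on different days, and 2013 includes a time point past the main rise among its green libraries. HT1 changed by -2.33 (SE 0.14) in 2012, -1.27 (SE 0.13) in 2013 and -2.09 (SE 0.14) in 2014 on the log2 scale. HT6 rose by 1.58 (SE 0.11), 0.78 (SE 0.10) and 1.86 (SE 0.11), and SWEET10 by 2.26 (SE 0.16), 1.60 (SE 0.15) and 1.47 (SE 0.16). These 3 kept 1 direction in each season. SUC11 rose by 0.55 (SE 0.03) in 2012, against 0.16 (SE 0.03) in 2013 and 0.18 (SE 0.03) in 2014. HT3 differed in sign, at -0.18 (SE 0.16) in 2012, 0.28 (SE 0.14) in 2013 and 0.62 (SE 0.16) in 2014, but the 2012 value was 0.14 after median ratio scaling. The season test of HT3 missed the threshold without the replicate 3 libraries (adjusted p = 0.15), and that of HT5 without the replicate 2 libraries (adjusted p = 0.23).

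Ripe berries, at the last 2 time points, differed between seasons for 6 of the 7 genes by the F test, which 70.2% of all tested genes passed. HT1 did not pass (limma adjusted p = 0.90), with 2.49 RPKM ± 1.81 (n = 12) in 2012, 2.41 ± 0.606 in 2013 and 2.40 ± 0.987 in 2014. SWEET10 held 35.5 RPKM ± 10.7 in 2012, 76.2 ± 44.0 in 2013 and 20.6 ± 9.81 in 2014 (adjusted p = 4.3e-16). HT6 held 31.5 RPKM ± 6.33, 74.0 ± 11.0 and 55.4 ± 15.9 (adjusted p = 1.4e-16). HT6 in ripe berries did not overlap between 2012, where the highest library held 44.6 RPKM, and 2013, where the lowest held 59.2. How many of all tested genes had such a gap was not counted. HT2 was likewise highest in 2013, at 2.04 RPKM ± 0.849, against 0.442 ± 0.340 in 2012 and 0.966 ± 0.457 in 2014 (adjusted p = 1.1e-18). HT5 had the opposite order, with 7.97 RPKM ± 5.18 in 2012, 3.35 ± 0.755 in 2013 and 5.41 ± 1.65 in 2014 (adjusted p = 0.00021). In 2012 HT5 held 11.8 RPKM ± 4.04 (n = 6) on day 74 and 4.09 ± 2.58 on day 80. The 2014 means of HT5 were 5.08 ± 1.63 on day 56 and 5.73 ± 1.74 on day 63, so the top rank of 2012 came from day 74. SUC11 held 80.3 RPKM ± 7.01, 67.9 ± 3.13 and 67.0 ± 2.33 (adjusted p = 1.6e-10). The call for HT3 (adjusted p = 0.0027) was lost without day 74 of 2012 (0.52), without the replicate 1 libraries (0.10) and with the form of the values in the fit (0.094). The last samples were taken on day 80 in 2012, day 43 in 2013 and day 63 in 2014, so season cannot be told apart from time since veraison.

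The labelled sugar content ran from 0.30 g/100 ml in green berries to 29.6 on day 74 of 2012. Against sugar, the 3 peaking genes took the same position in 2012 and different positions in 2013, while in 2014 HT6 and SWEET10 shared 1 position. HT2 had its highest mean at a mean sugar content of 7.57 g/100 ml in 2012, 2.61 in 2013 and 3.04 in 2014, HT6 at 7.57, 8.49 and 11.7, and SWEET10 at 7.57, 15.5 and 11.7. In 2013 and 2014 the positions of HT2 and HT6 rest on means of libraries that overlapped with those of a neighbouring time point. Between 15 and 20 g/100 ml (37 libraries) SWEET10 still had a median of 587 RPKM, and the median dropped to 96.1 RPKM between 20 and 25 (58 libraries) and 36.1 RPKM above 25 (27 libraries). HT6 had medians of 229, 87.1 and 47.7 RPKM in these ranges, and HT2 of 9.46, 2.70 and 0.924. HT5 went the other way, with medians of 0.657, 2.02 and 4.88 RPKM. The lowest of the 27 HT5 values above 25 g/100 ml was 2.39 RPKM.

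**Figure D3:**
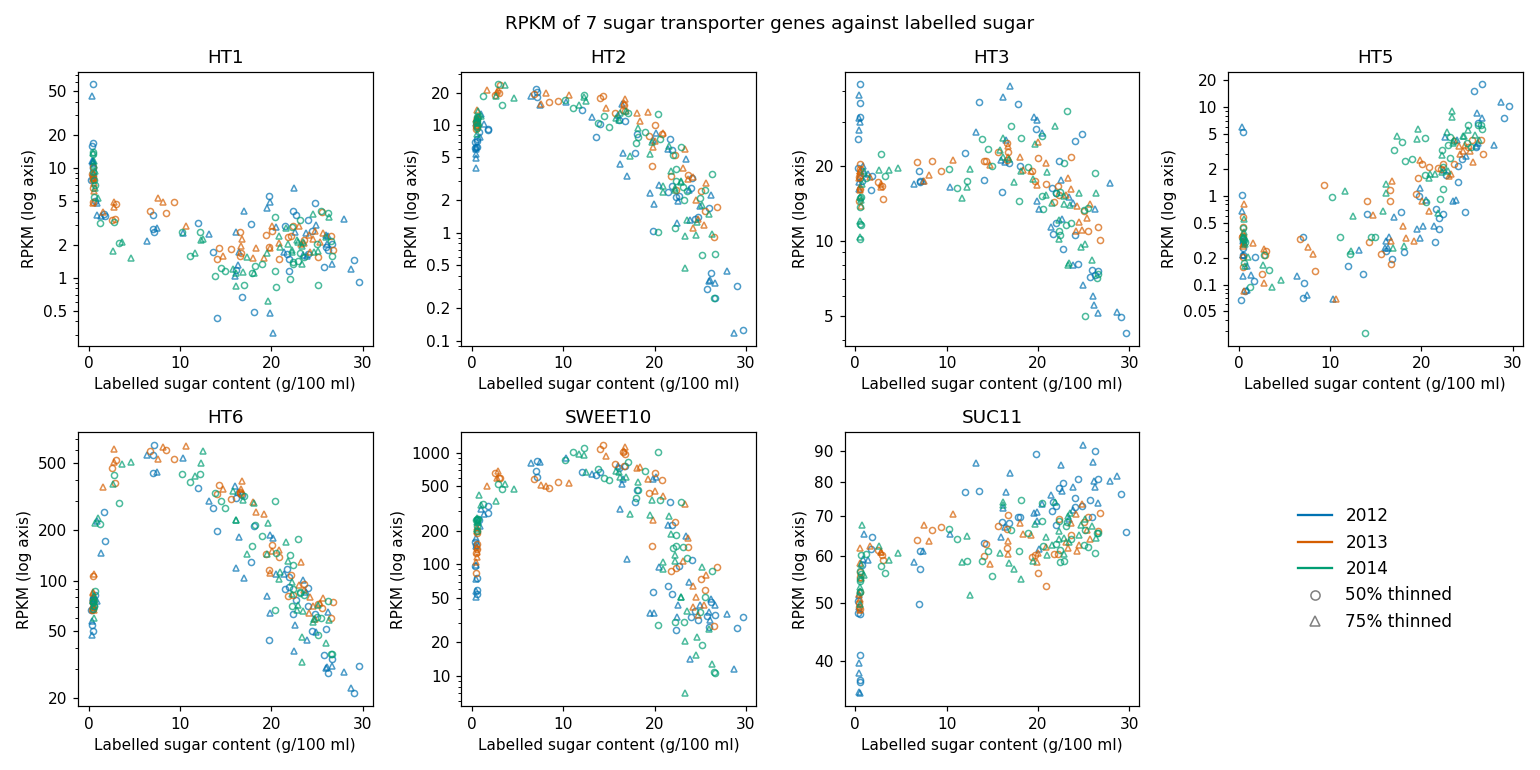
RPKM on a log axis against labelled sugar content (g/100 ml) in every library; circles and triangles are the thinning intensities, colours the seasons. HT6 and HT2 are highest between about 3 and 11 g/100 ml, SWEET10 stays high to about 20, and HT5 climbs above 15.

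Within the ripening phase, the libraries after day 0, each gene was correlated with sugar separately in each season (48, 36 and 54 libraries), with permutation p-values adjusted over the 21 relations. The p printed below as 1.5e-05 is adjusted from the smallest that 100000 resamples can give. Sugar and days after veraison rose together in these libraries (Pearson's r 0.82 in 2012, 0.95 in 2013 and 0.90 in 2014), and the 3 pools of a cell share a sampling date, so libraries are not fully independent. HT6 had Pearson's r of -0.89, -0.95 and -0.91 and Spearman's rho of -0.89, -0.93 and -0.92 with sugar in 2012, 2013 and 2014 (permutation adjusted p = 1.5e-05 in each). HT2 had r of -0.86, -0.93 and -0.88 (rho -0.86, -0.94 and -0.88) and SWEET10 r of -0.82, -0.91 and -0.84 (rho -0.80, -0.92 and -0.89), with the same adjusted permutation p. HT5 had r of 0.81, 0.84 and 0.74 (rho 0.89, 0.86 and 0.75; permutation adjusted p = 1.5e-05 in each). HT3 had r of -0.76, -0.83 and -0.54 (rho -0.77, -0.82 and -0.63; adjusted permutation p = 1.5e-05, 1.5e-05 and 8.4e-05).

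These 15 relations kept their sign and their call when the 2 libraries farthest from the median sugar were left out, when r was -0.88, -0.94 and -0.91 for HT6 and -0.76, -0.85 and -0.56 for HT3, the range of the other 3 genes in size being 0.74 to 0.93. The share of all tested genes with such a relation to sugar was not computed, so the count of 15 is a description. In the 27 libraries of 2013 that held the first form of the values r was -0.93 for HT6, -0.91 for HT2, -0.87 for SWEET10, 0.76 for HT5 and -0.70 for HT3; 2012 and 2014 held 1 form each. HT1 and SUC11 were less tied to sugar. HT1 had r of 0.07, 0.42 and 0.30 (rho 0.04, 0.41 and 0.37; permutation adjusted p = 0.65, 0.012 and 0.036). Its values for 2013 and 2014 did not hold: with day 0 included they were -0.44 and 0.03, without the replicate 2 libraries 0.18 and 0.12 (permutation adjusted p = 0.42 and 0.50), and the 2014 value was 0.18 after median ratio scaling (permutation adjusted p = 0.21). Without the 2 farthest libraries its r was 0.13, 0.37 and 0.37, and the first-form libraries of 2013 gave 0.32 (permutation adjusted p = 0.13). SUC11 had r of 0.27, 0.35 and 0.29 (rho 0.35, 0.39 and 0.27; permutation adjusted p = 0.064, 0.041 and 0.041), values that turned to -0.30 in 2012 and -0.29 in 2014 after median ratio scaling and were 0.10 in 2013 (permutation adjusted p = 0.58). With day 0 included the 2013 value was 0.06 (permutation adjusted p = 0.75). Without the 2 farthest libraries SUC11 had 0.39, 0.32 and 0.34, and 0.00 in the first-form libraries of 2013.

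The relation to sugar could also be examined with date held constant, since the 3 pools of a cell were picked together and differed in sugar. A single slope on labelled sugar within the 68 cells, green and ripening together, was fitted with limma. Whether the slope differed before and after veraison was not tested. HT3 had the steepest slope of the set, -0.16 on the log2 scale per g/100 ml (SE 0.02, limma adjusted p = 5.3e-12). HT1 fell with sugar by 0.10 (SE 0.02, adjusted p = 6.3e-06), SWEET10 by 0.06 (SE 0.02, adjusted p = 0.021), HT6 by 0.05 (SE 0.02, adjusted p = 0.010) and HT2 by 0.04 (SE 0.01, adjusted p = 0.0094). HT5 rose with sugar by 0.08 (SE 0.02, adjusted p = 0.0020), and SUC11 had a slope of -0.0090 (SE 0.0050, adjusted p = 0.12). Of all tested genes 16.7% fell and 32.2% rose with sugar, and 5 of the 7 transporter genes fell and 1 rose. Without season 2012 HT3 was the 1 gene still called. Without the replicate 2 libraries HT1, HT3 and SWEET10 were called (3 genes), without the replicate 3 libraries HT1 and HT3 (2 genes), and without the replicate 1 libraries HT6 and SWEET10 lost their calls.

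Single dates show the size of these differences. On day 32 of 2012 the 50% thinned pools held 35.4, 10.6 and 11.8 RPKM of HT3 at 17.83, 21.67 and 21.96 g/100 ml of sugar. The 75% thinned pools held 37.6, 11.4 and 14.9 RPKM at 16.18, 21.42 and 23.45 g/100 ml. In both sets the pool with the least sugar held more than 2 times the HT3 of the others. That pool was replicate 1 in both sets. Same-numbered pools of the sets deviated together over all tested genes on that day (r 0.64, 0.31 and 0.28), so the sets may not be independent. On day 63 of 2012 the 50% thinned pools held 21.0, 8.03 and 26.8 RPKM at 22.33, 24.44 and 24.78 g/100 ml, where the order of HT3 did not follow sugar, and the 75% thinned pools held 31.3, 6.63 and 30.4 RPKM at 19.55, 24.92 and 19.9 g/100 ml, where it did. Same-numbered pools deviated together on day 63 of 2012 as well (r 0.32, 0.75 and 0.57). On day 63 of 2014 the 50% thinned pools held 33.3, 7.07 and 7.39 RPKM at 23.18, 26.51 and 26.61 g/100 ml, while the 75% thinned pools held 8.18, 15.6 and 15.6 at 23.38, 26.32 and 24.53, the opposite order. Over the 67 cells with a highest and a lowest sugar pool, the sweetest pool held less HT3 than the least sweet in 44 and more in 23. The same count was 38 lower and 29 higher for HT1 and for HT6, and 27 lower and 40 higher for HT5. For HT2 and for SWEET10 it was 33 lower and 34 higher, so a comparison of the extreme pools alone showed no direction for these genes, whose slopes fell. For SUC11, whose slope was not called, it was 42 lower and 25 higher. In the 46 such cells after day 0 the count was 32 lower and 14 higher for HT3, 30 and 16 for HT6. It was 27 lower and 19 higher for HT1, 25 and 21 for SWEET10, and 23 and 23 for HT2. HT5 had 19 lower and 27 higher, and SUC11 had 29 and 17.

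The same pools stood apart for several but not all of the genes, with 1 date shown as an example. On day 80 of 2012 the replicate 2 pools had the least sugar of each thinning intensity, 19.78 g/100 ml against 26.21 and 29.07 at 50% and 22.49 against 25.98 and 27.92 at 75%. HT1 was highest in these pools, at 5.56 RPKM against 1.77 and 1.44 and at 6.57 against 2.43 and 3.41. HT5 was lowest in them, at 0.989 RPKM against 6.59 and 7.63 and at 1.95 against 3.61 and 3.77. HT2 was highest in them, at 1.04 RPKM against 0.424 and 0.321 and at 1.23 against 0.355 and 0.438. HT6 was highest in them as well, at 44.6 RPKM against 28.3 and 21.4 and at 38.3 against 30.4 and 28.8. SWEET10 was highest in the replicate 2 pool at 50% thinning but lowest in that at 75%. Its log2 deviations from the cell mean at 75% were -0.093 against 0.078 and 0.015. Over all tested genes same-numbered pools of the 2 intensities deviated together on this day (r 0.42, 0.71 and 0.35), so shared deviations were not confined to the transporter genes.

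**Figure D4:**
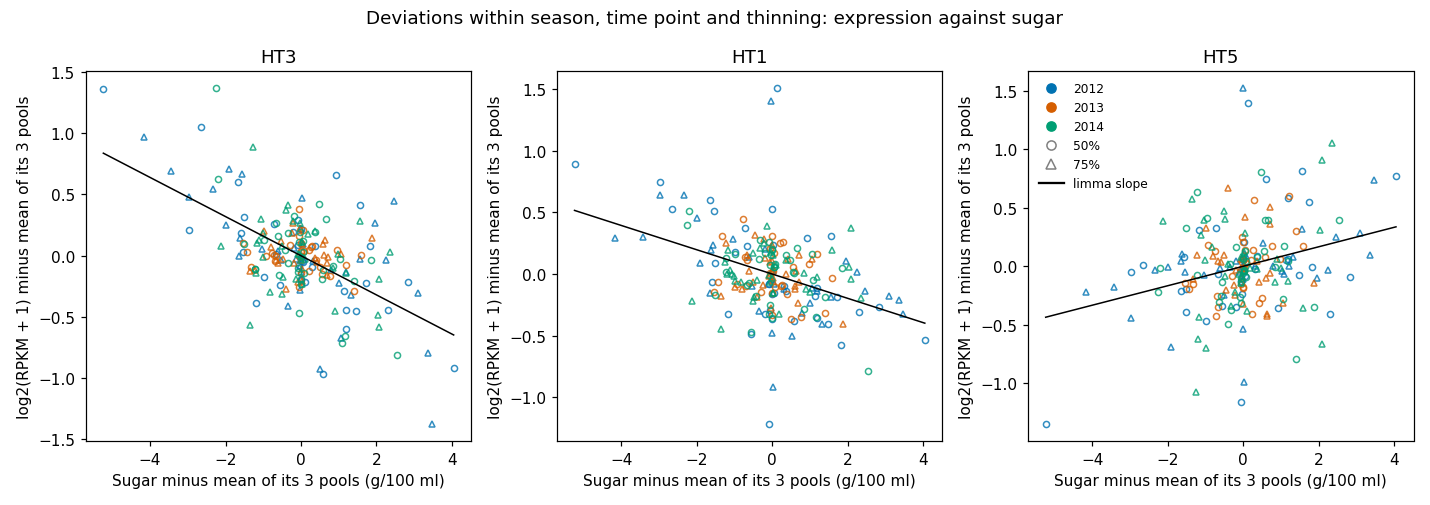
Deviation of log2(RPKM + 1) from the mean of the 3 pools of a cell, against the deviation of labelled sugar (g/100 ml), for HT3, HT1 and HT5; each point is a library, colours are seasons, circles and triangles the thinning intensities, and the line is the limma slope. The largest sugar deviations belong to 2012.

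Thinning intensity was compared as 75% minus 50% at the same season and time point, the question the vineyard design asks. None of the 7 genes passed an adjusted p of 0.05 in limma over all time points, where 0.809% of all tested genes did, and 1 of the 7, SWEET10, had an unadjusted p under 0.05. SWEET10 differed by -0.16 on the log2 scale (SE 0.06, limma adjusted p = 0.14), the largest of the 7 differences in size. Over days 8 to 22 it held 776 RPKM ± 218 (n = 24) at 50% thinning and 671 ± 214 (n = 24) at 75%, a difference of -0.21 (SE 0.13, adjusted p = 0.41) with overlapping ranges. Its mean was lower at 75% thinning at 18 of the 23 time points after day 0 and at 4 of the 8 before, and in 3 of the 34 time points all 3 pools of 75% thinned vines lay below all 3 of 50%. Such a gap occurred at 4 of the 34 time points for HT6 and at 3 for HT2, so SWEET10 did not stand out by this count. These gaps were not tested. After day 0 the mean was lower at 75% thinning at 15 of 23 time points for HT6 and 14 for HT2. It was higher at 14 of 23 for HT1, HT5 and SUC11, and at 12 for HT3. The share of all tested genes that reached 18 of 23 was not computed.

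The other 6 genes differed by between -0.05 (HT2, SE 0.03, limma adjusted p = 0.41) and 0.02 (SUC11, SE 0.01, adjusted p = 0.51) over all time points. HT6 differed by 0.17 in green berries (SE 0.09, adjusted p = 0.75), 0.19 on day 0 (SE 0.14, adjusted p = 0.43), -0.08 on days 8 to 22 (SE 0.09, adjusted p = 0.75) and -0.07 in ripe berries (SE 0.10, adjusted p = 1). No member was called in any of these 4 windows, in which 0.0915%, 7.44%, 4.21% and 0.636% of all tested genes were called. Within single seasons, which called 0.00481%, 0.948% and 0.0193% of all tested genes in 2012, 2013 and 2014, again no member was called. The difference for SWEET10 was -0.08 (SE 0.10) in 2012, -0.17 (SE 0.11) in 2013 and -0.24 (SE 0.10) in 2014. Whether thinning acted differently by season was tested with the F test, which called 0 members and 0.0% of all tested genes, with 1029 of 20770 genes and 0 of the 7 at an unadjusted p under 0.05. A p that misses the threshold does not show that the intensities were alike.

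**Figure D5:**
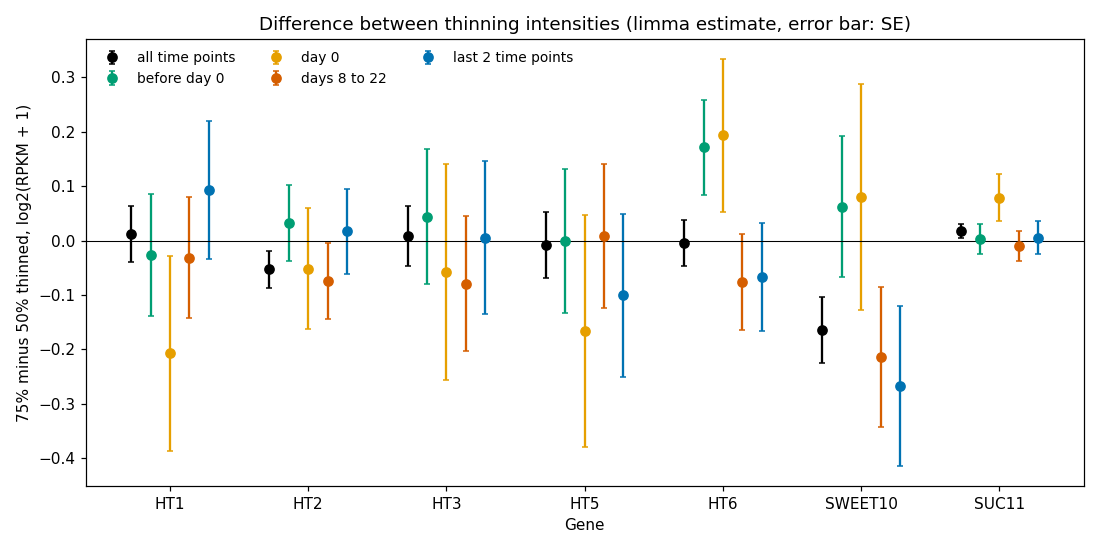
Difference between 75% and 50% thinned vines in log2(RPKM + 1) for each gene, over all time points and in 4 windows; points are limma estimates and error bars their SE. SWEET10 lies lowest over all time points, at -0.16, and none of the differences passed the threshold.

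Across the 68 cell means of log2(RPKM + 1), as a description, SWEET10 ran with HT2 (Pearson's r 0.90) and with HT6 (r 0.89), and HT2 with HT6 (r 0.85), while HT5 ran opposite to HT2 (r -0.85). HT1 had its strongest relation with SUC11, at -0.65. The cells follow one another in time and share libraries between genes. Outside the set, the gene whose course was most like that of a rising transporter was VIT_05s0051g00590 for HT6 (r 0.98 over 68 cells, out of 16400 genes compared) and VIT_09s0002g00330 for SWEET10 (r 0.95). VIT_05s0051g00590 went from a median of 21.5 RPKM in green berries to 738 on day 0 and 11.5 in ripe berries, and VIT_09s0002g00330 from 28.0 to 93.5 and 4.79 RPKM. For HT1, the gene most alike was VIT_05s0020g00450 (r 0.90), with medians of 16.3 RPKM in green berries and 7.33 on days 8 to 22. The files give no names for these 3 IDs.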

How the data were processed

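Berry pericarp RNA was sequenced from libraries without strand. The deposited table holds RPKM, which the authors computed with TopHat2 2.0.6 and Cufflinks 2.0.2, per the submitters' processing notes. No source used here gives the settings, genome build or annotation. Season and replicate came from sample titles. The labels conflict: their year tag names another year than the title for 134 samples and the same for 70. Every comparison of seasons rests on the titles. The assignment of reads shared by near-identical family members or antisense genes is likewise not stated, and depth is unknown, so no counting interval was computed. Members and gene lists were chosen with earlier results of these data known. The filter kept genes that reached 1 RPKM in 3 or more libraries, and limma 3.58.1 (R 4.3.3) was run on log2(RPKM + 1) with an intensity trend and Benjamini-Hochberg adjustment over all 20770 genes, with a threshold of 0.05 and, for onset, late ripening and intervals, 2-fold. Stage tests and the sugar slope used 1 mean per cell; thinning used the 34 season time points and 1 coefficient per season. A library had the second form of values when at least 20 of 9114 steady genes were listed under 0.5 RPKM, a split made after seeing the data. The fits were tested on simulated data. Permutations used 100000 resamples (Python 3.11.15, numpy 2.4.6, scipy 1.17.1). All 7 members were named; the gene most alike was the one with the highest Pearson's r among genes with at least 5 RPKM in a cell mean, at most 2 printed for members that rose and 2 for members that fell. The reference gene table matched 0 of the 29971 IDs, so the lists of other transporter genes, promoter motifs and seed markers gave no value and no sequence is shown. Alternatives were a pseudocount of 0.1, no filter, median ratio and quantile scaling, the form as a covariate, a replicate block, leaving out each replicate or season, and the 70 libraries with equal year tag and season.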

Additional observations from a re-analysis of the deposited data

Results flagged for a closer look

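The onset of ripening differed between the 3 seasons for each of the 7 genes by limma's moderated F test, the difference itself being tested. Of all tested genes 75.8% passed the same test, so the count is near that of the table as a whole. The adjusted p-values were 1.4e-14 for SUC11, 1.4e-10 for HT6, 5.3e-07 for HT1, 3.2e-05 for HT2, 0.0027 for SWEET10, 0.0032 for HT3 and 0.0035 for HT5. HT1, HT6, SWEET10 and SUC11 had the same direction in each season, and HT2, HT3 and HT5 did not. For HT2 the log2 change was 0.41 (SE 0.09) in 2012, -0.16 (SE 0.08) in 2013 and 0.17 (SE 0.09) in 2014, and the value of 2013 was 0.18 with quantile normalization. For HT5 it was -0.22 (SE 0.17) in 2012, 0.49 (SE 0.15) in 2013 and 0.52 (SE 0.17) in 2014, and the value of 2012 was 0.02 without the replicate 2 pools of day -18. With the form of the values in the fit all 7 genes kept an adjusted p under 0.05. The part of the sampling dates was not tested.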

How the results depend on the processing

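Counts of members called at onset, in late ripening, by season and for thinning stayed within 1.5 times under the alternatives run. The count for the 2014 interval was 2 with a pseudocount of 0.1 and ranged from 0 to 1 when 1 replicate was left out. The count for the sugar slope ranged from 2 to 4 when 1 replicate was left out and was 1 without season 2012. SUC11 turned in late ripening with median ratio scaling (-0.0089, and -0.0032 in 2012 and -0.10 in 2014), as did its correlation with sugar (-0.30 in 2012 and -0.29 in 2014). HT2 over the 2014 interval was 0.062 with median ratio scaling and 0.071 with quantile normalization. At onset HT3 in 2012 was 0.14 and 0.18 in these scalings, HT5 in 2012 was 0.071 with quantile normalization and 0.023 without replicate 2 of day -18 (added after seeing the data), its range when 1 replicate was left out being -0.40 to 0.061, and HT2 in 2013 was 0.18 with quantile normalization. Correlation of HT1 with sugar was -0.070 in 2012 and -0.44 in 2013 with day 0 included, -0.013 in 2012 with median ratio scaling, and between -0.020 and 0.21 when 1 replicate was left out in 2012. Thinning differences near 0 changed sign: in the 70 libraries with equal year tag and season HT1 was -0.077, HT2 0.047, HT3 -0.014 and HT5 0.0071; without season 2012 HT3 was -0.017 and HT6 0.030; without season 2013 HT5 was 0.011 and HT6 0.0035; HT5 was 0.0038 with quantile normalization, HT6 0.0019 with median ratio scaling, and without day 74 of 2012 they were 0.0094 and 0.0012. Leaving out 1 replicate gave -0.0061 to 0.040 for HT1, -0.017 to 0.026 for HT3, -0.018 to 0.0059 for HT5 and -0.030 to 0.023 for HT6. The cause of these shifts was not tested. Same-numbered pools of the 2 intensities correlated above 0.1 in 14 of 36 pairs in 2012, 7 of 30 in 2013 and 14 of 36 in 2014, so by the rule that every pair exceeds 0.1 the numbers were not taken to pair the samples. All 3 pairs did exceed 0.1 on 4 of 12 dates of 2012 (days -18, 32, 63 and 80), 1 of 10 of 2013 (day -20) and 0 of 12 of 2014, so same-numbered pools of these dates may not be independent in the sugar slope. With a replicate block SWEET10 differed by -0.16 between intensities, the sugar slope was -0.17 for HT3 and -0.093 for HT1, and no count of calls moved. With depth unknown, the counting error of low values such as those of HT5 cannot be given.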
